A study of Homo sapiens with 5 samples.

Results

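The insulin-like growth factor (IGF) axis was followed through 10 of its genes: the ligands IGF1 and IGF2, the receptors IGF1R and IGF2R, and the binding proteins IGFBP2, IGFBP3, IGFBP4, IGFBP5, IGFBP6 and IGFBP7. Every probe set that the platform annotation gives to one of these genes, alone or together with another gene, was taken: 30 of the array's 54675 probe sets, for 10 of the 21357 genes that the annotation names. The 5 Affymetrix U133 Plus 2.0 arrays measured total RNA of IMR32, an established human neuroblastoma line grown in DMEM with fetal calf serum. The cells carry a stable, inducible short hairpin RNA (shRNA) directed at the MEIS1b form of the homeobox gene MEIS1. One array each was run at 0 h (no doxycycline) and after 24, 48, 96 and 192 h of doxycycline, the drug that switches the hairpin on. All 5 arrays therefore share the line and the integrated hairpin, and no later array without doxycycline and no doxycycline array without the hairpin is among them. Whether the line is 1 clone or a pool is not given in the sources used here. There were no replicates at any time.

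IGF1 and IGF2 are secreted growth factors that activate the tyrosine kinase receptor IGF1R, which signals through IRS adaptors to PI3K and AKT. IGF2R has no kinase: it also carries enzymes tagged with mannose 6-phosphate to lysosomes, and it removes IGF2 from the cell surface. The binding proteins hold IGFs outside the cell and can limit or prolong their action, and IGF2 is known as an autocrine growth factor of neuroblastoma cells.

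MEIS1, the hairpin's target, read 1052, 851.5, 847.2, 857.0 and 786.6 at 0, 24, 48, 96 and 192 h in its brighter probe set, so all 4 induced arrays were below the 0 h array. Its fitted log2 change over the course, in the limma fit described below, was -0.33 ± 0.14 (SE), with a Benjamini-Hochberg adjusted p of 0.336 over all probe sets tested. The defining markers of the labelled cell type were present: 8 of the 9 neuroblast markers analysed passed the signal filter, and their summed signal ran from 9831 at 24 h to 13011 at 96 h. Of these 8, CHGA and CHGB, secretory granule proteins, rose. CHGA read 1756 at 192 h, against 998.2 at 0 h (limma adjusted p = 0.0144), and CHGB 183.9 at 192 h, against 74.3 at 0 h (limma adjusted p = 0.00636). With the level of control RNAs added before labelling as a covariate, neither passed (limma adjusted p = 0.0926 for CHGA and 0.0584 for CHGB). Neither passed without the 0 h array, and CHGA did not with time in hours (0.0684). Summed signals were at most 15 for Schwann, 36.7 for blood, 57.8 for endothelial and 17.5 for epithelial markers, and none of these markers sat at the floor on all 5 arrays. The 8 mesenchymal markers summed to 633.6, 548.4, 496.8, 318.1 and 279.8 at 0, 24, 48, 96 and 192 h. PDGFRA fell, to 131.6 at 192 h against 457.3 at 0 h, as 1 of the 5 of them that were tested (limma adjusted p = 6.12e-04). The other 7 mesenchymal markers summed to 176.3, 188.7, 199.6, 153.6 and 148.2, and none of the 4 of them tested passed. The part of PDGFRA, CHGA and CHGB in the results was not tested. In bulk RNA, fewer cells of a type and less RNA per cell cannot be told apart.

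Because MEIS1 encodes a DNA-binding protein of the TALE homeobox class, whose members recognise a TGACAG core, the 250 bases before each RefSeq transcript start of the IGF genes (GRCh38.p14) were searched for TGACAG on both strands. The search was added after the expression values were seen. It matched 2 of 11 entries, which cover 8 of the 10 genes, or 18.2%, against 13.0% of the 35116 entries of all genes. The matches were 1 in IGF2R and 1 in IGFBP2, at the first of its 3 listed starts. These stretches are shown 5′ to 3′ with the match in capitals (CTGTCA, the core on the other strand), together with that of IGFBP5, which had the lowest ratio to 0 h of any tested member and holds no match. A match describes the letters only and is not a binding site.
IGF2R (chr6:159968832-159969081, plus strand): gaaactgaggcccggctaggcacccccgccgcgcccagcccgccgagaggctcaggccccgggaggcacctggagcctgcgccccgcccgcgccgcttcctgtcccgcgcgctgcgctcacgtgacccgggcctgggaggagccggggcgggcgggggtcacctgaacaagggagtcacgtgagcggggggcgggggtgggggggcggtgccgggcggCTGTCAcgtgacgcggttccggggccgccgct
IGFBP2 (chr2:216632578-216632827, plus strand): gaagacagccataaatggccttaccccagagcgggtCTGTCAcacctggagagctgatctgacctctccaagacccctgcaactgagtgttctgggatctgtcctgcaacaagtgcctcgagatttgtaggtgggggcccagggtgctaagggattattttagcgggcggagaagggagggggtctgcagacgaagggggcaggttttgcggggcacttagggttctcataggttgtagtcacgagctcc
IGFBP5 (chr2:216695550-216695799, minus strand): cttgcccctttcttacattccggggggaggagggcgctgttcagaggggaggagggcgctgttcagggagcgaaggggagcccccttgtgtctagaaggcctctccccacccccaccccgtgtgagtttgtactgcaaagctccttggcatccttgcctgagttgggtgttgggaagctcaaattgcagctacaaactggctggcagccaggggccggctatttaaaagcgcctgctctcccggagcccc
IGFBP2 and IGFBP5 are neighbours on chromosome 2, with 0 protein-coding genes starting between them.

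Signals are MAS5 values on a linear scale with a floor at 1. The test was a limma line through log2(signal + 4.7) against time, with the course from 0 to 192 h as 4 equal steps, fitted over the 26805 probe sets whose mean signal reached 17.9. The fitted change is the slope over the 4 steps. Its error comes in part from how far the 5 arrays lie from that line (3 residual degrees of freedom). The other part is a prior that limma draws from all tested probe sets by their signal (9.0 degrees of freedom). The p-values thus rest on departures from a line and not on a spread between cultures. Residual scatter below means this moderated value. Of the 30 IGF probe sets 12 passed the filter, from 6 genes (IGF2, IGF1R, IGF2R, IGFBP2, IGFBP4 and IGFBP5), and 18 did not. No IGF probe set had an adjusted p under 0.05, where 1.84% of all tested probe sets did. At an unadjusted p under 0.05 there were 2 of 12 (16.7%), IGF2 and IGFBP2, both with a positive change, against 13.6% of all tested. The median fitted log2 change was 0.13 for the 12 and 0.02 for all tested, and the median absolute change 0.24 for the 12 and 0.22 for all tested.

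**Figure D1:**
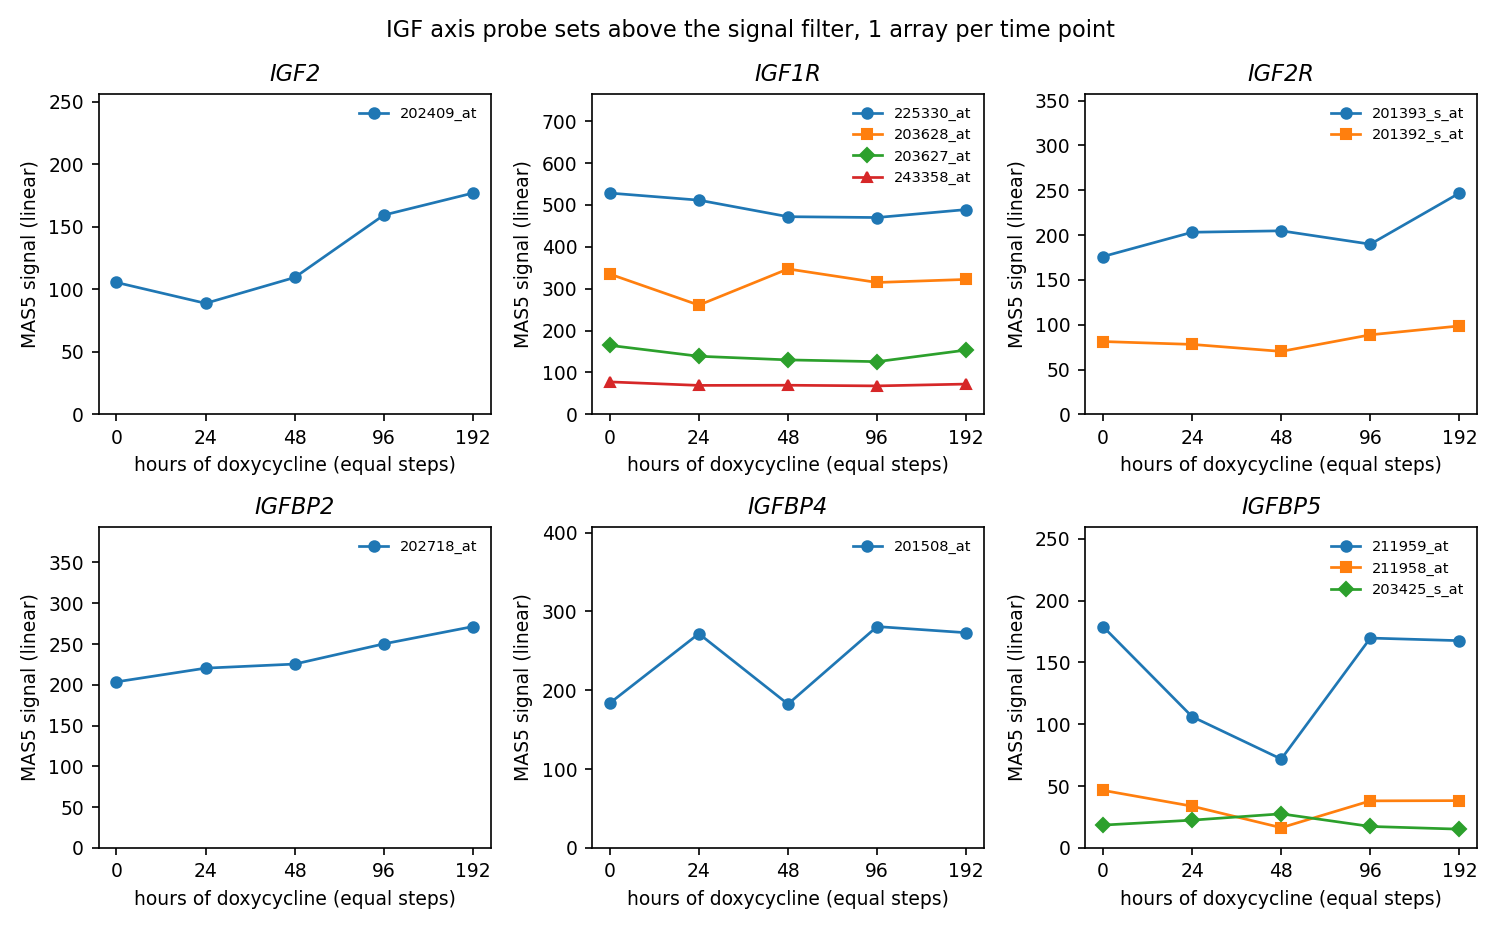
MAS5 signal (linear axis from 0) against hours of doxycycline, drawn as equal steps, for the 12 IGF axis probe sets that passed the signal filter, 1 panel a gene and 1 point an array. The tested IGF2 probe set read 177.0 at 192 h against 105.5 at 0 h, while both bright IGFBP5 probe sets were lowest at 48 h.

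IGF2 was the member with the largest fitted change. Its 1 bright probe set, 202409_at, is annotated to IGF2 and to the read-through gene INS-IGF2. It read 105.5, 88.8, 109.5, 159.4 and 177.0 at 0, 24, 48, 96 and 192 h. The 24 h array was lowest, 0 and 48 h lay close together, and the 96 and 192 h arrays were the highest. The 192 h signal was 1.65 times that at 0 h after the offset of 4.7 was added to both, as in every ratio given here. The fitted log2 change was 0.90 ± 0.24 (SE), with a limma unadjusted p of 0.00243 and an adjusted p of 0.0843, so it did not pass. With the spike-in level of each array as a covariate the change was 0.82 (adjusted p = 0.310), within a range of 0.0668 to 0.987 over all alternatives. The poly-A spike-ins, control RNAs added before labelling, read 0.10 higher at 24 h and 0.45, 0.61 and 0.25 lower on the log2 scale at 48, 96 and 192 h than at 0 h.

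The other IGF2 probe sets had mean signals far below the filter, where MAS5 values are noisy. They therefore cannot show whether IGF2 RNA followed the course of the bright probe set. Which RNA the bright probe set detects was not tested. Probe set 210881_s_at read 2.5, 1.8, 2.5, 1.6 and 12.5, with the 192 h array alone standing out, and 202410_x_at stayed between 1.1 and 2.6. On this platform the suffix _s_at marks a probe set that matches several transcripts, and _x_at one that can also match other sequences. INS, which lies upstream of IGF2 and shares sequence with the read-through transcript, read 1.0 to 1.6 on all 5 arrays; it is named because of the shared annotation.

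IGF1, the other ligand, had no probe set above the filter. Its 5 probe sets ranged from 1.0 to 21.3. The brightest, 211577_s_at, read 18.7, 12.7, 13.5, 12.1 and 21.3, with the 0 and 192 h arrays highest. Probe set 209542_x_at read 20.8 at 0 h and 3.9, 2.6, 1.3 and 3.9 later, a pattern that none of the other 4 showed, and 209540_at was highest at 48 h (13.4). The IGF1 probe sets thus gave no common course at these signals.

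IGF1R, the signalling receptor, was bright and nearly level. Its brightest probe set, 225330_at, read 528.4, 511.5, 472.0, 470.0 and 489.0 at 0, 24, 48, 96 and 192 h. The 0 h array was highest and the 48 and 96 h arrays lowest, a span of 1.12-fold. The fitted log2 change was -0.14 ± 0.14 (SE; limma adjusted p = 0.754). Probe set 203628_at read 335.0, 260.8, 347.2, 314.9 and 322.2, with the 24 h array lowest. In 203627_at the signals were 164.7, 138.7, 130.0, 125.8 and 153.5. In 243358_at they were 77.5, 69.1, 69.5, 67.9 and 72.3. The last pair of probe sets was highest at 0 h and lowest at 96 h, as 225330_at was. The fitted changes of the 4 ranged from -0.14 to 0.06, and the moderated residual scatter was 0.11 to 0.19 on the log2 scale. The remaining IGF1R probe set, 208441_at, stayed between 6.3 and 14.2.

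Among the 12 tested probe sets, 5 were lower than at 0 h on every induced array (41.7%, against 20.0% of all tested), and 2 were higher on every one (16.7%, against 20.4%). The 5 were 3 probe sets of IGF1R and 2 of IGFBP5. Probe sets of 1 gene read the same RNA, so they do not count as separate observations.

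IGF2R, the clearance and sorting receptor, was highest at 192 h in both tested probe sets. Probe set 201393_s_at read 176.0, 203.1, 204.7, 189.8 and 246.8 at 0, 24, 48, 96 and 192 h, with all induced arrays above 0 h. Its fitted log2 change was 0.34 ± 0.18 (SE; limma adjusted p = 0.447). Probe set 201392_s_at read 81.2, 78.0, 70.2, 88.7 and 98.6, with 24 and 48 h below and 96 and 192 h above 0 h (0.28 ± 0.24, adjusted p = 0.691). Without the 192 h array the fitted changes were 0.13 for 201393_s_at and 0.088 for 201392_s_at. Both probe sets thus shared the high 192 h array but differed in sign at 24 and 48 h. The dim probe set 1569052_at read 9.6 to 22.5 and was highest at 24 h.

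IGFBP2, a binding protein that is abundant in fetal and nervous tissue, was the only one of the 12 tested probe sets whose signal was higher at each time than at the time before, a pattern that 1.96% of all tested probe sets had. It read 203.6, 220.4, 225.4, 250.2 and 271.4 at 0, 24, 48, 96 and 192 h. The 24 and 48 h arrays were the closest pair, and the 192 h signal was 1.33 times that at 0 h. The fitted log2 change was 0.40 ± 0.16 (SE), with a limma unadjusted p of 0.0254 and an adjusted p of 0.277, so the steady course did not pass.

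IGFBP4, which binds IGFs and is cut by the protease PAPPA, alternated. It read 183.6, 271.8, 182.4, 280.8 and 273.0 at 0, 24, 48, 96 and 192 h. The 0 and 48 h arrays formed a low pair and the 24, 96 and 192 h arrays a high group (1.47, 1.52 and 1.47 times the 0 h signal). The fitted log2 change was 0.47 ± 0.24 (SE; limma adjusted p = 0.440), and without the 0 h array it was 0.25.

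IGFBP5, a binding protein that is retained in the extracellular matrix, had a marked low at 48 h. Its brightest probe set, 211959_at, read 179.0, 106.1, 71.8, 169.7 and 167.6 at 0, 24, 48, 96 and 192 h. The 211958_at probe set read 46.5, 33.7, 16.3, 38.0 and 38.2. In both, 48 h was lowest, 24 h next, and the 96 and 192 h arrays were close to each other and a little below 0 h. The 48 h signals were 0.42 and 0.41 of those at 0 h, and these were the only IGF probe sets of the 12 that differed from 0 h by at least 2-fold at any induced time (16.7%, against 8.05% of all tested). At 48 h, 1.02% of all tested probe sets were at least 2-fold lower than at 0 h. With an offset of 18.8 only 1 of the 2, 211959_at, did.

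A linear trend does not describe such a course: the fitted log2 changes were 0.19 ± 0.44 and -0.14 ± 0.49 (SE). The residual scatter was 0.35 and 0.39 on the log2 scale, where the tested probe sets of the other IGF genes had 0.11 to 0.19. Those probe sets were all brighter than 211958_at (mean signal 34.5), and the prior in the scatter follows signal. Of similarly dim pathway genes, FOXO4 (mean signal 35.8) had 0.32 and PAPPA2 (36.1) had 0.33. The dimmer 203425_s_at (residual scatter 0.36) went the other way, with 18.4, 22.4, 27.5, 17.3 and 15.1 and its highest signal at 48 h. The other 3 IGFBP5 probe sets read at most 13.6; of these, 203426_s_at read 3.2, 4.6, 9.5, 13.2 and 13.6. The probe sets of IGFBP5 therefore disagreed, and which transcripts each detects was not analysed here. Its chromosomal neighbour IGFBP2 had no such low at 48 h (ratio to 0 h of 1.10).

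**Figure D2:**
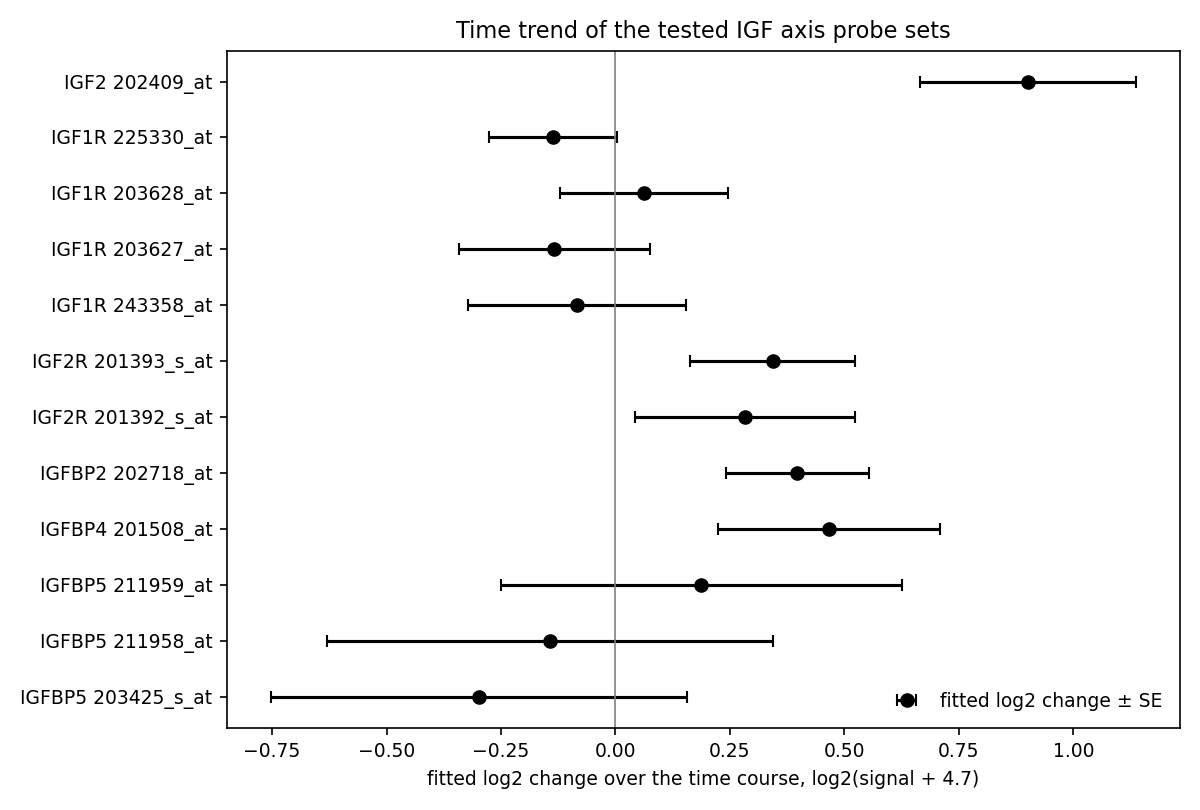
Fitted log2 change over the course (slope over 4 time steps) with its standard error for the 12 tested IGF axis probe sets. The tested IGF2 probe set stands highest at 0.90 ± 0.24, and none of the 12 had an adjusted p under 0.05.

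The remaining binding proteins were dim. IGFBP3, the main IGF carrier of the circulation, read 7.7, 1.8, 10.0, 14.8 and 11.0 in 210095_s_at and 1.5 to 5.4 in 212143_s_at. IGFBP7, a related protein with weak IGF binding, stayed between 1.0 and 7.8 in all 3 probe sets, and 2 of them touched the floor. IGFBP6, which prefers IGF2 over IGF1, had 1 probe set that read 5.2, 8.9, 2.2, 36.6 and 11.9. Its 96 h array stood apart from the other 4, and its mean was below the filter. Of the 18 IGF probe sets under the filter, 6 were at the floor on at least 1 array, and the mean signals nearest to the limit were 15.8 (an IGF2R probe set) below it and 20.1 (an IGFBP5 probe set) above it. Ratios to 0 h of such signals depend on the offset, and they were not tested.

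**Figure D3:**
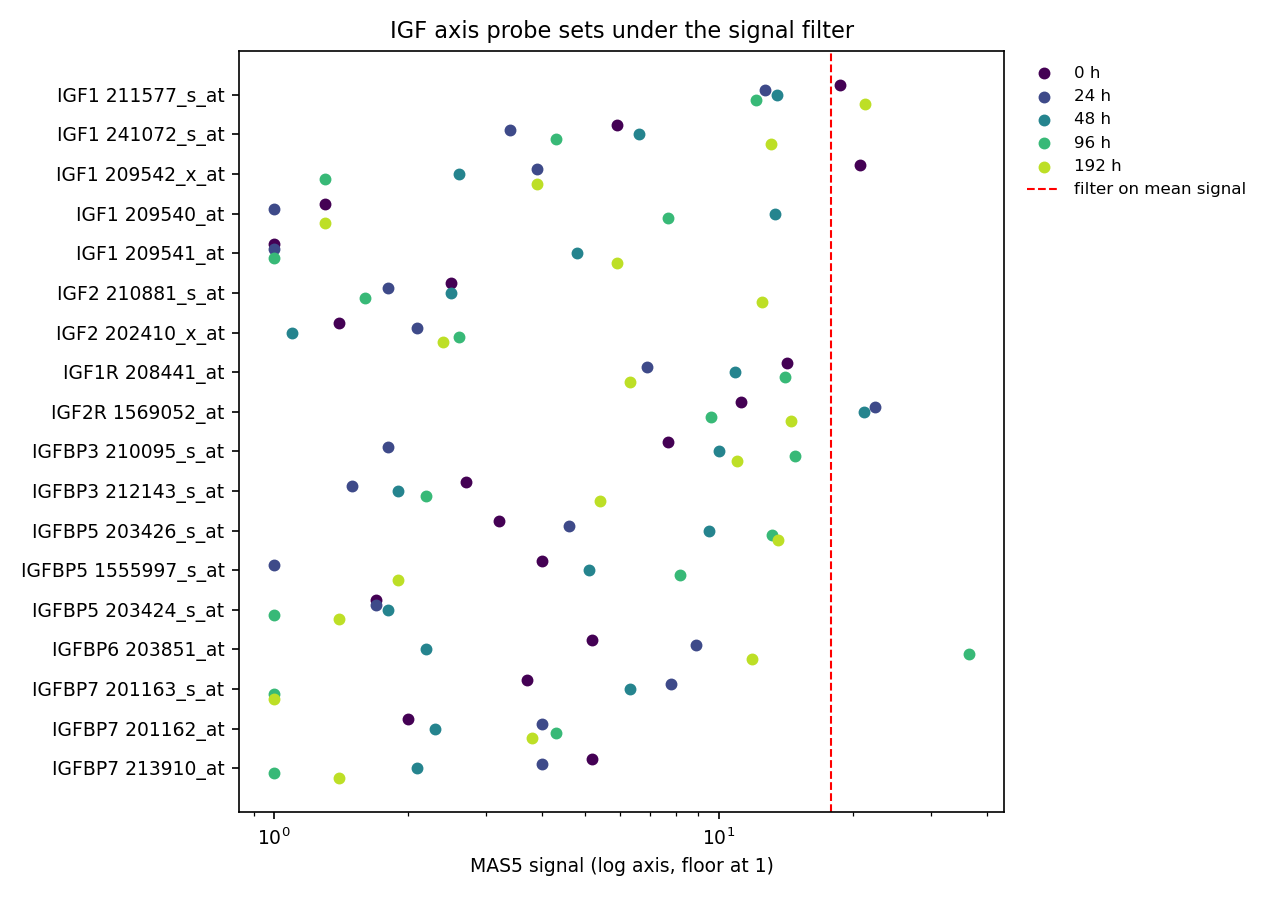
MAS5 signals (log axis, floor at 1) of the 18 IGF axis probe sets under the filter, 1 point an array and 1 row a probe set, with the filter value of 17.9 as a dashed line. The filter acts on the mean, so single arrays can lie beyond the line, as IGFBP6 did at 96 h with 36.6.

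Time by time, the 12 probe sets showed no common direction. At 24 h 4 of the 12 exceeded their 0 h signal (47.2% of all tested did). For 48 h this was 5 of 12 (50.7%), for 96 h 5 of 12 (52.1%) and for 192 h 5 of 12 (49.9%). The 12 had median log2 ratios to 0 h of -0.11, -0.08, -0.07 and -0.07 at 24, 48, 96 and 192 h. All tested probe sets had medians of -0.02, 0.01, 0.02 and 0.00.

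The genes whose course was most like that of a member were sought for the 3 members with the largest fitted change, by the root mean square difference of log2 ratios to 0 h over the 4 induced arrays, among 11939 genes. For IGF2 they were ACTL10 (0.073), CMTR1 (0.075) and ENO2 (0.081). ENO2, a neuronal glycolytic enzyme, read 184.5, 147.8, 178.0, 290.1 and 290.5, with the same low at 24 h and the same high pair at 96 and 192 h as IGF2. For IGFBP4 they were ACTA2 (0.031), REEP4 (0.053) and CPLANE1 (0.054), each with a low 0 and 48 h pair. For IGFBP2 they were UBR3 (0.016), TTLL12 (0.025) and RNF220 (0.030). These genes were picked for their likeness, so the shared high and low arrays follow from the choice. The likeness rests on 4 ratios a gene and describes these arrays. ACTL10 (11.8 to 26.7) and CPLANE1 (19.2 to 32.3) had signals near the filter, where MAS5 values are noisy.

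The rest of the pathway was read from a list of 53 genes, of which 48 were analysed and 42 passed the filter, each by its brightest probe set. By limma none of the 42 passed after adjustment, where 2.68% of all 11944 genes did. At an unadjusted p under 0.05 there were 11 of 42 (26.2%, 6 with a positive and 5 with a negative change), against 16.7% of all genes. Their median fitted log2 change was 0.05, and 0.0027 for all genes.

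Downstream of IGF1R, the transcription factors FOXO1 and FOXO3, which AKT keeps out of the nucleus, had fitted changes of opposite sign. FOXO1 read 93.7, 60.8, 44.0, 40.7 and 38.6 at 0, 24, 48, 96 and 192 h, lower at every step, as 1.63% of all tested probe sets were. Its fitted log2 change was -1.16 ± 0.30 (SE; limma adjusted p = 0.0817), and -0.76 without the 0 h array. The other tested FOXO1 probe set was also negative (-1.07 ± 0.42, limma adjusted p = 0.275). It read 72.7, 40.1, 33.9, 21.1 and 35.7, so 192 h was above 96 h. FOXO3 read 414.8, 400.2, 448.7, 493.2 and 683.4, with the 192 h array highest (0.69 ± 0.17, adjusted p = 0.0672). Without that array the change was 0.36 (adjusted p = 0.469), and the dimmest of the 3 tested FOXO3 probe sets had 0.11 ± 0.21. Neither gene passed. FOXO1 passed with array medians set equal (limma adjusted p = 0.0345; 0.0345 to 0.751 over all alternatives). FOXO3 passed with hours as the covariate (0.0282) and when 1 probe set a gene was tested (0.0425; 0.0282 to 0.978 over all alternatives).

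Among the 18 tested PI3K, AKT and mTOR genes the fitted changes ran from -1.16 to 0.69, with a median of 0.21. Of the 7 adaptors, SHC1 had 0.48, and it did not pass. The 4 tested probe sets of GAB1 had mixed signs, from -0.37 to 0.46. The insulin receptor gene INSR had 0.05 in its brightest probe set, and its 4 tested probe sets were all positive (0.05 to 0.41). Its relative INSRR read 19.7, 22, 20.6, 43.4 and 44.1, so 96 and 192 h formed a high pair (1.14 ± 0.40, limma adjusted p = 0.208), at signals near the filter.

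Genes that act on the binding proteins or on IGF2 messenger RNA did not pass either. STC1, an inhibitor of the protease PAPPA that cuts IGFBP4, read 252.1 at 0 h and 88.7, 98.5, 105.9 and 121.8 later, so all 4 induced arrays were low (fitted log2 change -0.72 ± 0.42, limma adjusted p = 0.498). The sign rests on the 0 h array: STC1 had 0.57 without it and -1.40 without 192 h. PAPPA itself was under the filter, at 8.3 to 16.3 in its brightest probe set. ADAM9, a membrane protease reported to cut IGFBP5, read 340.7, 351.4, 341.2, 267.7 and 230.0 (-0.60 ± 0.17, adjusted p = 0.112). Its dimmer tested probe set had a smaller change (-0.20 ± 0.25, limma adjusted p = 0.807). The IGF2 mRNA-binding proteins IGF2BP1 and IGF2BP3 were bright. IGF2BP1 read 807.1 at 0 h and 528.8 to 570.9 on the 4 induced arrays (-0.43 ± 0.18, adjusted p = 0.328), and the change was 0.0030 without the 0 h array. IGF2BP3 read 772.1, 763.7, 702.5, 572.0 and 586.8 (-0.48 ± 0.14, adjusted p = 0.129). All 4 tested probe sets of IGF2BP3 had negative fitted changes.

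In the sorting machinery that serves IGF2R, no gene of 6 passed. GGA2 had -0.56 in its brightest probe set, but of its 6 tested probe sets 4 were negative and 2 positive, up to 0.43. GGA1 had 0.26, and its 4 tested probe sets were all positive (0.07 to 0.38). IGFBPL1, an IGFBP-like gene, read 1495.8, 1503.6, 1622.5, 1677.0 and 1140.3, with only 192 h below 0 h (-0.25 ± 0.19, and 0.24 without that array). IGFALS, the acid-labile subunit of the circulating complex, had -0.33 at signals of 10.5 to 25.8, and 0.094 without the 192 h array. IGFBP1 read at most 5.8.

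**Figure D4:**
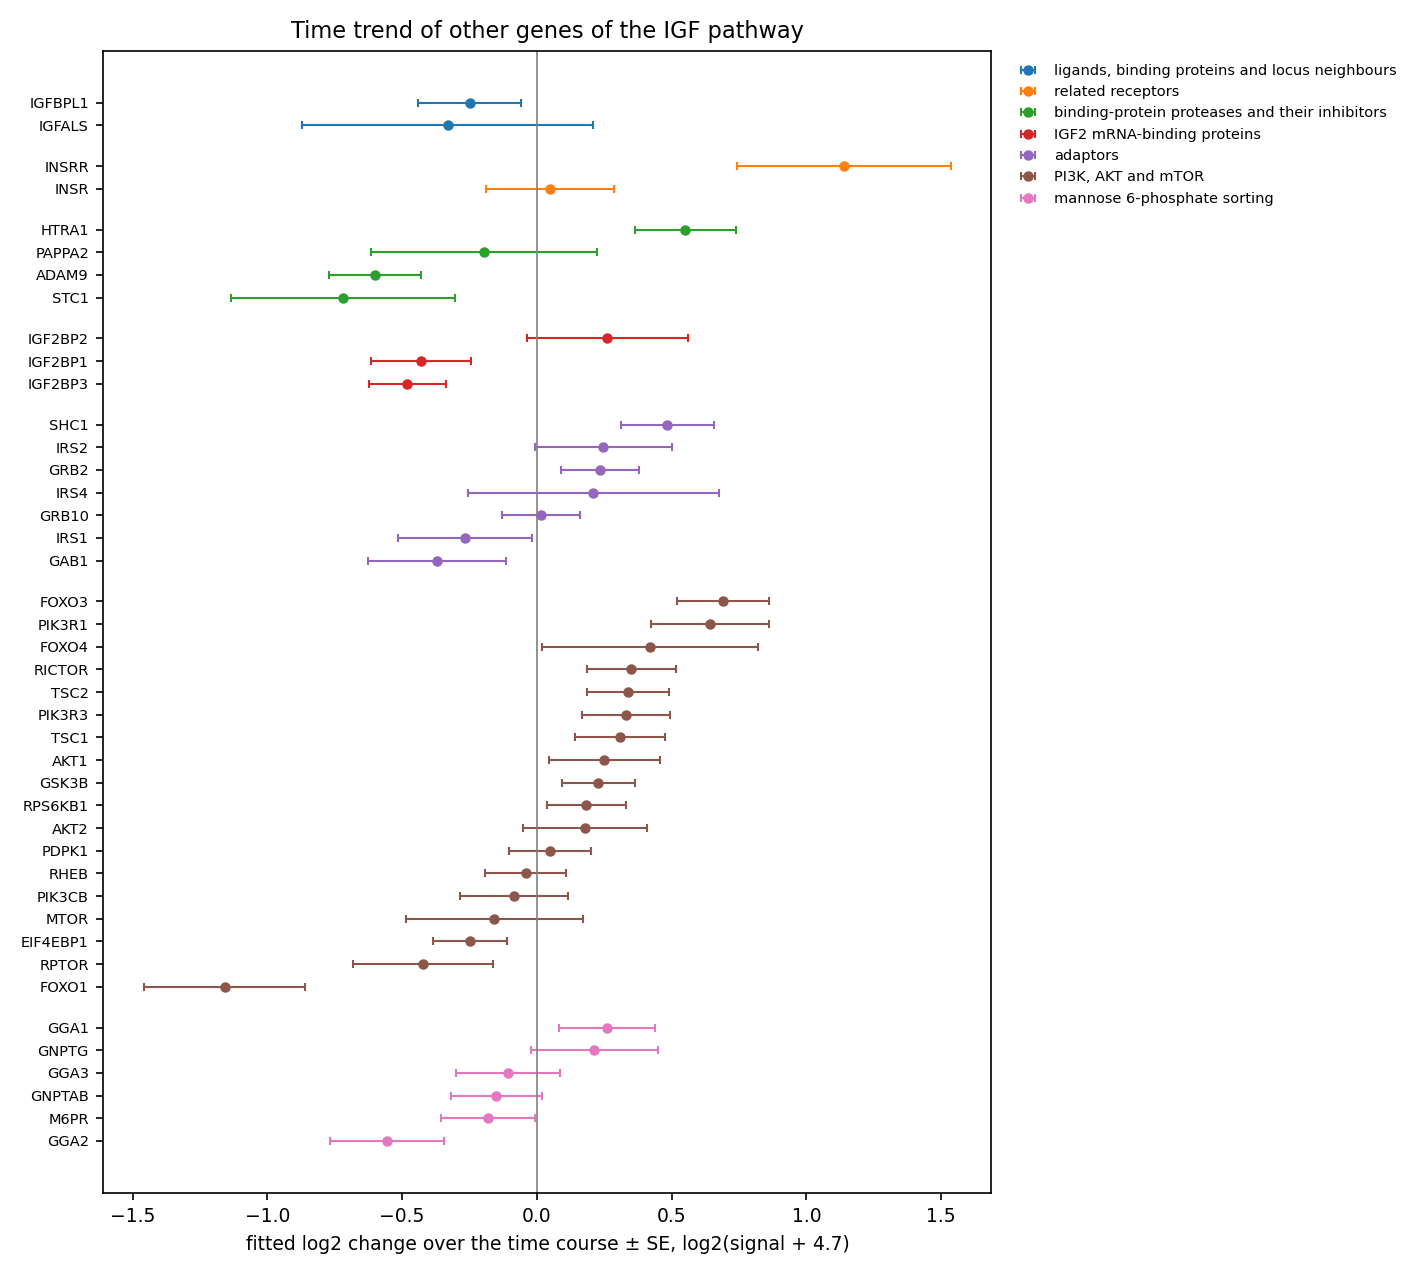
Fitted log2 change over the course with its standard error for the 42 other pathway genes above the filter, coloured and grouped by list. FOXO1 (-1.16) and INSRR (1.14) lie farthest from 0, and none of the 42 had an adjusted p under 0.05.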

How the data were processed

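Per the submitters' processing notes, MAS5 and GCOS made the signals; versions are not given. The deposited values were taken to be log2 signals: raised back to linear, 100% of them fell on a multiple of 0.1 (tolerance 0.01). The 2% trimmed mean signal was 100.02 to 100.03 on every array, so none was added. The floor held 5.34% to 8.15% of probe sets. MAS5 background subtraction makes low signals noisy, and the number of arrays (5, 1 a time) limits the precision. Detection calls and probe-level data were not analysed here.

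Signals were made linear, an offset of 4.7 (median 25th percentile) was added and log2 taken. The 62 control probe sets were left out. The probe set was the unit, because the IGF2 probe sets carry 2 gene names. limma 3.58.1 (R 4.3.3) fitted the time step with eBayes (trend=TRUE), two-sided, with Benjamini-Hochberg adjustment over all 26805 tested probe sets, and it was tested on simulated data. Named beyond the members are, per list, the 2 genes with the largest absolute change, nearest courses by rule, and genes said to be exceptions. Gene names come from GEO's platform annotation (1 name for 41091 probe sets, several for 1801), checked by gene ID against RefSeq (41043 matched, 0 symbols changed). Members and lists were chosen with earlier results of these data known. Alternatives were another offset, no filter, 2 scalings, another time covariate, induced against uninduced, a spike-in covariate, eBayes without trend, 1 probe set a gene, and leaving out each array.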

Additional observations from a re-analysis of the deposited data

How the results depend on the processing

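No IGF probe set passed the limma threshold under any of the 15 alternatives, of which testing 1 probe set a gene leaves out IGF2. The fitted changes of IGF2, IGF2R (both probe sets), IGFBP2 and IGFBP4 were positive, and that of IGF1R 225330_at negative, in every alternative that could give them. No paired analysis was possible because each time point has 1 array and the labels number no replicates. Over all probe sets the fit called 492 of 26805, but 137 without the 0 h array, 184 without 192 h, 235 with the spike-in covariate, and 0 without the filter, for induced against uninduced or without the eBayes trend; the cause was not tested. Leaving out an array, the fitted log2 change of IGF2 was 0.77 to 1.36 (the highest without 0 h) and that of MEIS1 -0.40 to -0.13. The 2 IGF probe sets past 2-fold became 1 with the larger offset, where 752 of all 26805 tested were past it. Without the filter they became 7 of 30, which adds 5 dim ones, beside 13697 of all 54613. Of the 42 other pathway genes, 1 rose with hours as the covariate and 1 with 1 probe set a gene (FOXO3 in both). With equal array medians 1 fell (FOXO1). Adjusted p-values of these limma calls were 0.0282 to 0.0425. In that order, these fits called 343 of 26805, 415 of 11944 and 496 of 26805 in either direction.

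Over all alternatives the sign changed in 6 of the 12 tested IGF probe sets, and in each of these also on leaving out an array. Leaving out an array changed it for 18 of the 42 other pathway genes tested. The share over all tested probe sets was not computed. For IGF1R 203628_at the change was -0.048 with equal medians, -0.11 for induced against uninduced, -0.12 with the spike-in covariate, and -0.080 to 0.30 leaving out an array. For 203627_at it was 0.065 with the spike-in covariate and -0.49 to 0.15 leaving out an array, and for 243358_at -0.21 to 0.061. IGFBP5 211959_at had -0.54 for induced against uninduced and -0.30 to 1.24 leaving out an array. IGFBP5 211958_at had 0.12 with hours, 0.27 with the spike-in covariate, and -0.66 to 0.60 leaving out an array. IGFBP5 203425_s_at had 0.10 for induced against uninduced, and -0.76 to 0.015 leaving out an array.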
